A study of Mus musculus with 12 samples.

Results

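Core macroautophagy genes were examined in aged mouse brain, in captured astrocytes and in the cells that passed the capture column. The mice were labelled KO, for a Bmal1 deletion aimed at astrocytes, or wild type (WT). The members were 36 named genes of the autophagy machinery, matched by symbol to the Ensembl identifiers of the deposited tables. All 36 were found among the 41388 genes listed. They were grouped by step into 5 initiation genes, 4 nucleation genes, 6 genes of membrane supply to the growing autophagosome, 11 conjugation enzymes, 5 ATG8 proteins, the transcription factor Tfeb and 4 cargo receptors. Per the labels, every mouse was of strain Bmal fl/fl; ALDH1L1-CreERT2 on a C57BL/6 background, KO mice being Cre+ and WT mice Cre-. The inducible Cre is driven by a promoter of astrocytes, that of Aldh1l1, so most flowthrough cells were not its target. All mice, Cre- controls included, received tamoxifen by gavage at 2 mg per day for 5 days from 2 months of age, and their brains were taken at 20 months. Astrocytes were captured on magnetic beads against ACSA-2, an astrocyte surface antigen, and the unbound cells made up the flowthrough. The groups were KO astrocytes (n = 4 mice, numbers 132, 60, 62 and 73), WT astrocytes (n = 4 mice, numbers 56, 57, 64 and 78), KO flowthrough (n = 2 mice, 132 and 60) and WT flowthrough (n = 2 mice, 56 and 64). Where values are listed by library, they follow these mouse numbers in this order.

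Macroautophagy encloses cytoplasm in a double membrane and delivers it to lysosomes. The ULK1 kinase complex starts the process, the class III phosphatidylinositol 3-kinase complex marks the forming membrane with a lipid, and ATG9 vesicles, ATG2 lipid transfer proteins and the WIPI lipid readers let it grow. A ubiquitin-like conjugation system then attaches ATG8 proteins (LC3 and GABARAP) to the membrane, where cargo receptors dock, and TFEB switches on many genes of autophagy and lysosomes. In astrocytes the pathway is known for clearing damaged mitochondria and protein aggregates. BMAL1, encoded by Arntl, is the clock transcription factor that binds the E-box sequence CACGTG with CLOCK.

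Since BMAL1 binds E-boxes, and TFEB binds the CLEAR element, an E-box with GT before it and AC after it, the promoter windows of the members were searched for both. Each motif reads the same on both strands. RefSeq promoter windows of assembly GRCm38.p6, running from 250 bases before to 50 bases after a transcription start, were matched for 30 of the 36 members. An E-box stood in the windows of 4 of these 30 members (13.3%) and of 2187 of 27025 genes (8.09%). The full CLEAR element stood in the windows of 0 of the 30 members and of 100 genes (0.37%). At so low a share, 0 among 30 members says little about TFEB sites, and only exact matches were counted. The 4 members with an E-box are shown because BMAL1 is known to bind this sequence, with the E-box in capitals. A match is only a description of these letters, and binding was not measured.
Atg3: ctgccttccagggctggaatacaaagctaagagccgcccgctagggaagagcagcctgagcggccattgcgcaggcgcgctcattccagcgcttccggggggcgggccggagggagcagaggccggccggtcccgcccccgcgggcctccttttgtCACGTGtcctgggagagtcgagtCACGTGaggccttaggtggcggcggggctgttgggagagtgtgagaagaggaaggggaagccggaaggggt
Atg5: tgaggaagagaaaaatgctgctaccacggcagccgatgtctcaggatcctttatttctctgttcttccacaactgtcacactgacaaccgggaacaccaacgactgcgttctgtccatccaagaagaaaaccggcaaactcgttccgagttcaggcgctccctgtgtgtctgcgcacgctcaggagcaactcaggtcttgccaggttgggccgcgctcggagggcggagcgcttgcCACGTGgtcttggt
Atg7: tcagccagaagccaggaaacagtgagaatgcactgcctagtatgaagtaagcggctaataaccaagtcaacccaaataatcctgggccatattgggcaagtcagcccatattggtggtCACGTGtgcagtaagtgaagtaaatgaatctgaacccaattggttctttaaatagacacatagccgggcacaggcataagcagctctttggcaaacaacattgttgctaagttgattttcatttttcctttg
Atg14: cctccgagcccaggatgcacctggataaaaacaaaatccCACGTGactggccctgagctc
The Atg3 window is the 250 bases before the start (chr16:45158579-45158828, plus strand), with E-boxes beginning 94 and 71 bases before it. The Atg5 window (chr10:44268089-44268338, plus strand) has its E-box beginning 14 bases before the start. The Atg7 window (chr6:114670846-114671095, plus strand) has its E-box beginning 132 bases before a RefSeq start that lies 27999 bases inside the gene as the deposited files place it. The Atg14 stretch (chr14:47568415-47568474, minus strand) runs across the start, and its E-box spans that position.

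The KO astrocyte libraries held 44661924 to 49388569 counts in total, against 38691406 to 50120754 for WT astrocytes. The KO flowthrough libraries held 51221440 and 51551942 counts, against 45279488 and 51239564 for WT flowthrough. Arntl, the gene targeted in KO mice, had 628, 401, 428 and 645 reads in KO astrocytes, against 360, 239, 242 and 374 reads in WT astrocytes. It had 284 and 261 reads in KO flowthrough, against 292 and 217 reads in WT flowthrough. The count covers the whole gene, including exons outside any deleted part, so it does not measure the deletion itself. In astrocytes every KO library had more reads than every WT library. The fold change was 1.58 (log2 0.66 ± 0.19, unadjusted p = 0.00705, adjusted p = 0.473 in edgeR's quasi-likelihood test). The whole-gene count was thus not lower in KO astrocytes, and whether the deletion took place was not tested. In flowthrough the labels overlapped (log2 0.08 ± 0.26, adjusted p = 1). KO and WT below are therefore the labels only. All 10 astrocyte markers were higher in astrocytes than in flowthrough. The astrocyte libraries also held oligodendrocyte RNA (summed levels of 10 markers of 24510 to 38522 CPM, counts scaled to library size, in KO and 20395 to 26669 CPM in WT). The astrocyte library of KO mouse 73 stood apart, with 12051 CPM of astrocyte markers against 19853 to 24740 in the other KO astrocyte libraries, and 3813 CPM of microglia markers against 813 to 1494. KO mouse 73 and WT mouse 78 were the mice whose libraries carried Xist RNA, so each label had 1 female-type and 3 male-type mice among its astrocyte libraries. All flowthrough libraries came from male-type mice, so comparisons between fractions set astrocytes of both types against male-type flowthrough only.

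All 36 members passed the filter on low counts in every comparison, and the smallest count of any member in any library was 24, for Atg9b. Levels are given as RPKM, which divides counts by exon length and library size, after scaling by trimmed mean of M values (TMM). The length is the exon length deposited for the whole gene, so the order of genes depends on it. By RPKM, the ATG8 genes were the most abundant members in every group. Gabarap had the highest level, 193 ± 15 RPKM in KO astrocytes, 198 ± 22 in WT astrocytes, 172 ± 6.0 in KO flowthrough and 188 ± 12 in WT flowthrough (mean ± SD, n = 4, 4, 2 and 2). Map1lc3b came next in every group, with 150 ± 24, 137 ± 7.0, 93.1 ± 12 and 86.4 ± 2.0 RPKM in the same order. By reads Map1lc3b came before Gabarap, with 33355 to 55683 against 11847 to 20091 over the libraries. Their exon lengths were 7517 bases for Map1lc3b and 1844 for Gabarap. Atg9b was the lowest in every group, at 0.464 ± 0.17, 0.609 ± 0.21, 0.224 ± 0.045 and 0.294 ± 0.25 RPKM. Tfeb, Atg16l1, Pik3r4 and Atg2a also stayed below 2 RPKM in every library. The split of reads between near-identical paralogs is uncertain, because no label or header says how multimapping reads were counted. The strand setting is not stated either. Atg9a shares 31.8% of its exon bases with Gm29253 on the same strand, and Gm29253 averaged 0.0833 counts against 537 for Atg9a. Exons of Becn1 share 43.9% of their bases with Cntd1, Atg4d 31.2% with Kri1 and Atg9b 7.45% with Nos3, each on the opposite strand. Cntd1 averaged 9.92 counts, Kri1 238 and Nos3 264, against 1421 for Becn1, 479 for Atg4d and 79.3 for Atg9b.

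**Figure D1:**
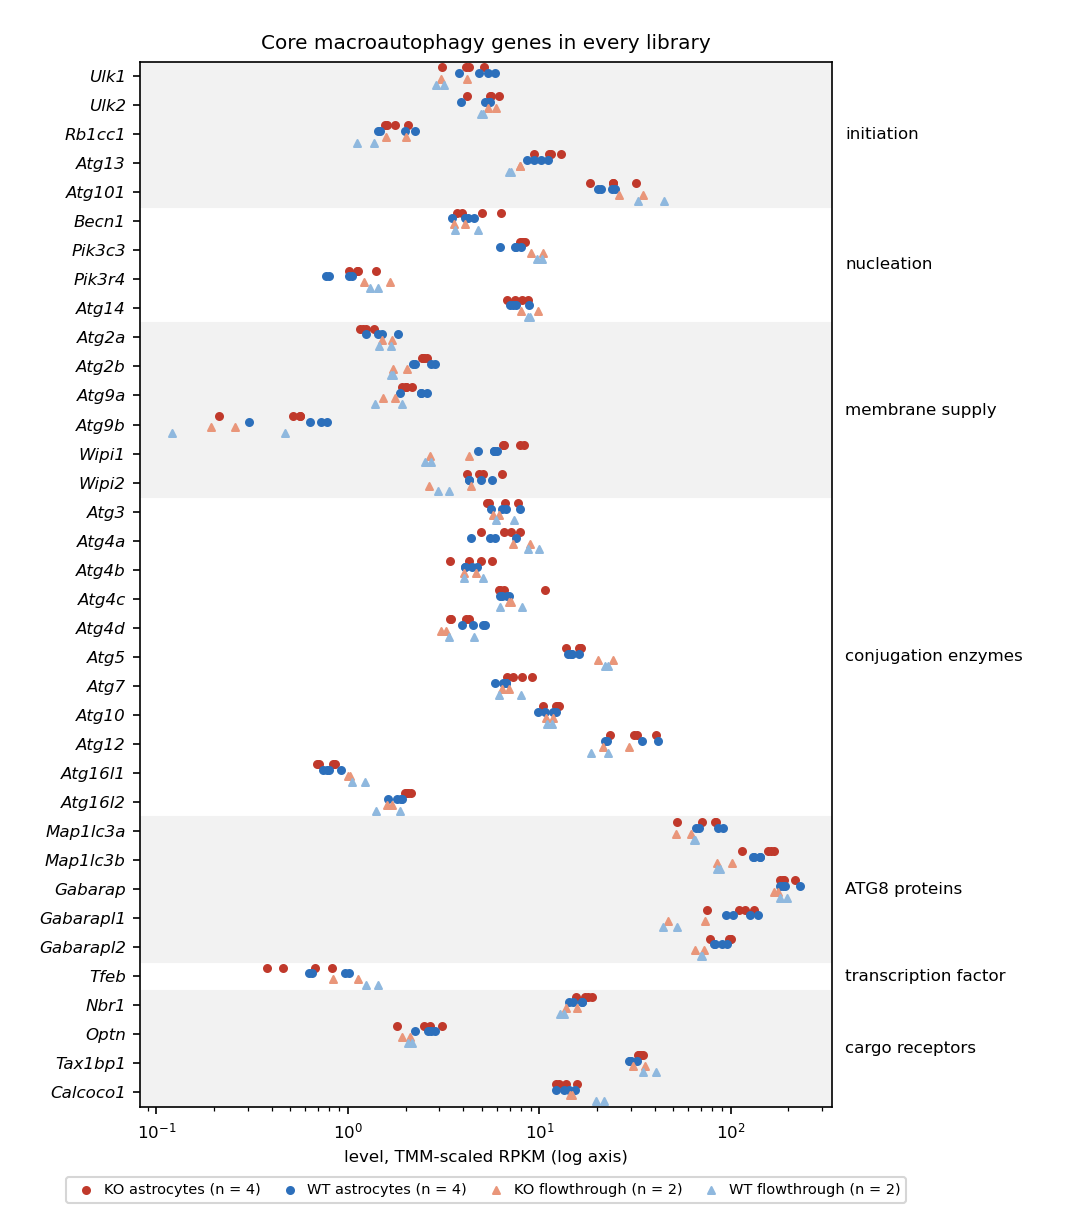
Level of each of the 36 members in every library, in TMM-scaled RPKM on a log axis, grouped by step. Circles are astrocyte and triangles flowthrough libraries. By group mean, the 5 ATG8 genes lie above all other members and Atg9b lies lowest, while single libraries break this order, such as Atg101 above Gabarapl1 in WT flowthrough 64 and Tfeb below Atg9b in KO astrocytes 60 and 62.

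In astrocytes, no member differed between KO and WT mice at an adjusted p under 0.05 in edgeR's quasi-likelihood test (0 of 36, against 0.232% of the 18527 genes tested, 0.146% higher and 0.0864% lower). At an unadjusted p under 0.05 there were 2 members, Wipi1 and Atg7, against 5.37% of all genes. By DESeq2 and by limma-voom 0 members were called as well. The members' log2 fold changes ran from -0.47 for Tfeb to 0.39 for Wipi1, with 22 above and 14 below 0 and a median of 0.09, against a median of 0.0044 over all genes. The 95% interval of the change lay within 2-fold in either direction for 34 of 36 members, all but Atg9b and Tfeb, and within 1.5-fold for 25. In 4 members every KO library lay above every WT library (Wipi1, Atg7, Atg16l2 and Tax1bp1), and in 0 members every KO library lay below. Over all genes, 4.03% were apart, 1.76% with KO higher and 2.27% with KO lower. Without KO mouse 73 and WT mouse 78, 0 members were called and the median was 0.12.

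Among the initiation genes, Ulk1, the kinase that starts autophagy, had 4.13, 5.12, 4.29 and 3.09 RPKM in KO astrocytes, against 3.80, 5.41, 4.84 and 5.84 RPKM in WT astrocytes. Its log2 fold change was -0.25 ± 0.19 (estimate ± SE) and the groups overlapped. Its paralog Ulk2 took 56.4 ± 6.3% of the summed ULK level in KO astrocytes and 50.2 ± 1.5% in WT astrocytes (SD, n = 4 each). Ulk2 (0.11 ± 0.16), Rb1cc1, the scaffold FIP200 (-0.02 ± 0.18), Atg13 (0.21 ± 0.13) and Atg101 (0.14 ± 0.17), the adaptor subunits, also had intervals that included 0.

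The 4 nucleation genes all had log2 fold changes above 0, and none passed the test. Pik3r4, the regulatory subunit VPS15, had 1.12, 1.02, 1.13 and 1.39 RPKM in KO astrocytes, against 1.05, 0.765, 1.01 and 0.794 RPKM in WT astrocytes. Its lowest KO library lay just below the highest WT library, and its log2 fold change was 0.37 ± 0.17 (adjusted p = 0.941). KO mouse 73, whose microglia markers were high, gave the highest value, and whether these go together was not tested. Without KO mouse 73 and WT mouse 78 the change was 0.21, but this fit also left out the 0.794 RPKM of WT mouse 78. Becn1, the scaffold Beclin 1 (0.22 ± 0.18), Pik3c3, the lipid kinase VPS34 (0.17 ± 0.12), and Atg14, the subunit that directs the complex to sites of autophagosome formation (0.03 ± 0.13), differed by less. Pik3r4 and Pik3c3 were both lower in astrocytes than in flowthrough (below).

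Wipi1, a reader of the lipid made by the nucleation complex, had the largest positive change of the members. It had 6.45, 8.27, 6.57 and 7.87 RPKM in KO astrocytes, against 5.81, 4.77, 5.78 and 5.98 RPKM in WT astrocytes. The groups did not overlap, and the fold change was 1.31 (log2 0.39 ± 0.14, unadjusted p = 0.0175, adjusted p = 0.694 in edgeR's quasi-likelihood test). Over 18 alternative fits the log2 fold change stayed between 0.32 and 0.45, and the adjusted p between 0.271 and 0.999. Its paralog Wipi2 (0.11 ± 0.16) and the lipid transfer proteins Atg2a (-0.27 ± 0.16) and Atg2b (0.01 ± 0.12) overlapped between the groups. So did Atg9a, which encodes the lipid scramblase of ATG9 vesicles (-0.19 ± 0.14), and its paralog Atg9b (-0.38 ± 0.39).

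Of the 11 conjugation enzymes, Atg7 had the largest change. It encodes the E1-like enzyme that activates ATG12 and the ATG8 proteins. Atg7 had 6.74, 8.10, 9.12 and 7.25 RPKM in KO astrocytes, against 6.44, 6.66, 6.70 and 5.84 RPKM in WT astrocytes. The lowest KO library lay just above the highest WT library, and the fold change was 1.22 (log2 0.29 ± 0.13, unadjusted p = 0.0443, adjusted p = 0.902). Atg16l2, the less studied paralog of Atg16l1, had 1.98, 2.12, 2.06 and 2.02 RPKM in KO astrocytes, against 1.91, 1.81, 1.89 and 1.61 RPKM in WT astrocytes (log2 0.19 ± 0.14, adjusted p = 0.995). The largest negative change was that of Atg4d, a protease that trims ATG8 proteins, with 3.43, 4.16, 3.46 and 4.27 RPKM in KO astrocytes, against 5.07, 4.50, 3.95 and 5.19 RPKM in WT astrocytes (-0.28 ± 0.16). The other 8 conjugation genes had log2 fold changes between -0.07 for Atg3 and 0.20 for Atg4a. Of the members with an E-box in the window, Atg7 had this change of 0.29 ± 0.13, while Atg3, the E2-like enzyme for ATG8 (-0.07 ± 0.17), Atg5, which is joined to ATG12 (0.07 ± 0.11), and Atg14 (0.03 ± 0.13) were close to 0.

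The summed RNA level of the ATG8 genes differed between KO and WT astrocytes by less than the spread between mice. It was 618 ± 81 RPKM in KO astrocytes and 615 ± 64 RPKM in WT astrocytes (SD, n = 4 each), and the log2 fold changes of the 5 genes lay between -0.09 for Map1lc3a and 0.14 for Map1lc3b. Within KO astrocytes the sum ran from 501 RPKM in mouse 73 to 676 RPKM, and within WT astrocytes from 564 to 698 RPKM. Map1lc3b, which encodes the LC3B protein widely used to mark autophagosomes, had 157, 162, 167 and 115 RPKM in KO astrocytes, against 131, 143, 130 and 143 RPKM in WT astrocytes. In 3 of the 4 KO libraries it lay above all WT libraries, and in KO mouse 73 it lay below them. The part of cell composition in that library's value was not tested.

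**Figure D2:**
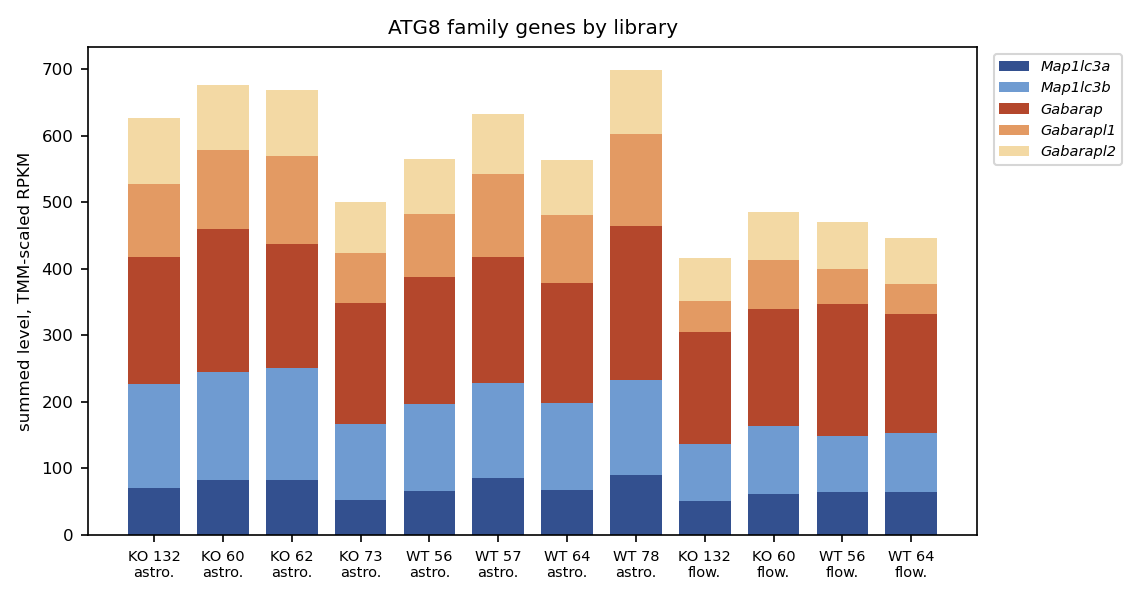
Summed level of the 5 ATG8 genes in each library, in TMM-scaled RPKM, stacked by gene, with libraries named by label, mouse number and fraction. The sum lies between 501 and 676 RPKM in KO astrocytes, 564 and 698 in WT astrocytes, 416 and 485 in KO flowthrough and 447 and 470 in WT flowthrough.

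Tfeb, the transcription factor of autophagy and lysosome genes, had the largest negative change. It had 0.671, 0.460, 0.376 and 0.825 RPKM in KO astrocytes, against 1.01, 0.967, 0.652 and 0.627 RPKM in WT astrocytes. The groups overlapped, and the log2 fold change of -0.47 ± 0.30 (95% interval -1.13 to 0.19, adjusted p = 0.984) moved to -0.79 without KO mouse 73 and WT mouse 78 (adjusted p = 0.425). Among the cargo receptors, Tax1bp1, a receptor for ubiquitin-tagged cargo, had 33.1, 34.0, 32.8 and 35.0 RPKM in KO astrocytes, against 30.1, 29.2, 32.2 and 29.9 RPKM in WT astrocytes. These groups did not overlap, with a log2 fold change of 0.16 ± 0.10 (adjusted p = 0.976). Nbr1 (0.15 ± 0.11) and Optn (-0.04 ± 0.19), both receptors for ubiquitin-tagged cargo, and Calcoco1, a receptor for endoplasmic reticulum and Golgi (-0.02 ± 0.12), overlapped between the groups.

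**Figure D3:**
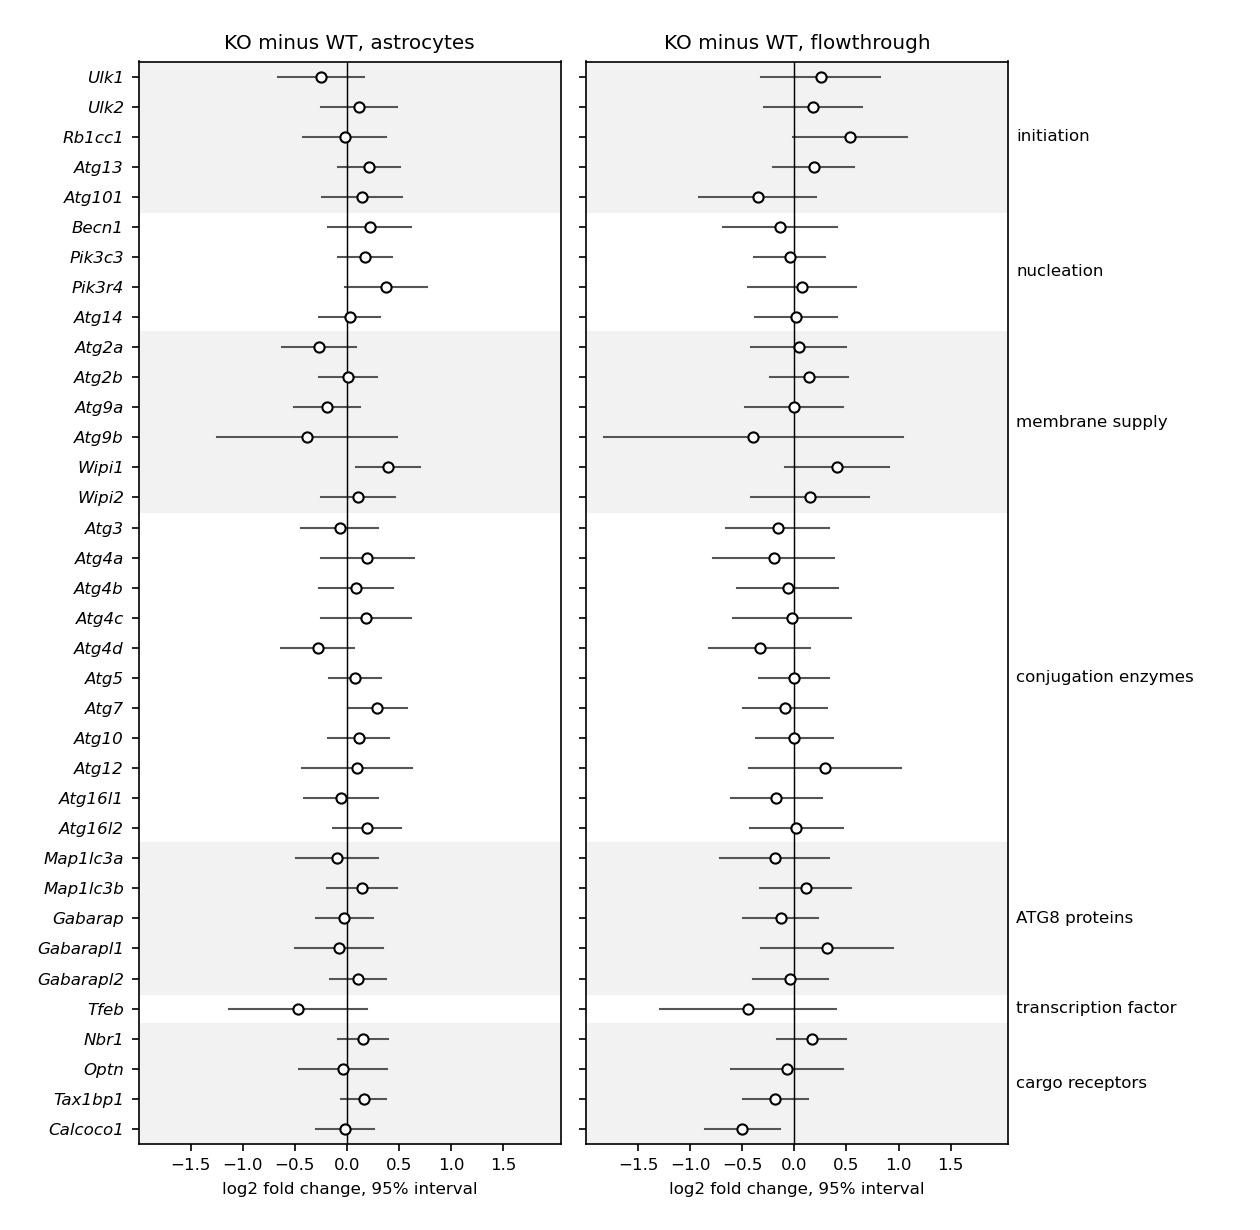
Log2 fold change of each member, KO minus WT, in astrocytes (8 libraries) and in flowthrough (fit over 12 libraries), with 95% intervals. Open circles did not pass the test at an adjusted p under 0.05, which holds for all 36 members in both panels. Intervals are wider in flowthrough, where 2 libraries stand for each label.

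Markers of several other cell types moved with the label in astrocytes, though none of the listed markers was called. All 10 microglia markers (median 0.55) and all 10 oligodendrocyte markers (median 0.78) had log2 fold changes above 0. All 5 choroid plexus markers (median 0.33) and 7 of 8 endothelial markers (median 0.25) were also above 0. Neuron markers (4 of 10 above 0, median -0.12) and pericyte markers (3 of 5, median 0.05) were mixed. Of 10 astrocyte markers, 7 were below 0 (median -0.16). Summed microglia markers ran from 813 to 3813 CPM in KO and from 796 to 1574 CPM in WT astrocytes, and none of the 10 was at 0 counts. With a covariate for the markers of other cells, 0 members were called, Wipi1 had a log2 fold change of 0.37 and Atg7 of 0.31, and Tfeb had -0.77. In bulk libraries such as these, fewer cells of a type and less RNA per cell cannot be told apart.

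In the flowthrough, where the Cre was not expected to act in most cells, no member differed between KO and WT mice either (0 of 36, against 0.00476% of 20997 genes). At an unadjusted p under 0.05 there was 1 member, Calcoco1, against 4.63% of all genes, and DESeq2 and limma-voom also called 0 members. The median log2 fold change of the members was -0.02, against 0.04 over all genes, with 15 above and 21 below 0. With 2 libraries on each side, 11 members did not overlap between labels, 5 with KO higher and 6 with KO lower, against 17.1% and 16.5% of all genes. The intervals lay within 2-fold for 32 members, all but Rb1cc1, Atg9b, Atg12 and Tfeb, and within 1.5-fold for 16.

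Calcoco1 had 14.7 and 14.5 RPKM in KO flowthrough, against 19.7 and 21.7 RPKM in WT flowthrough. The log2 fold change was -0.50 ± 0.17 (unadjusted p = 0.0111, adjusted p = 1), and over 22 alternative fits it stayed between -0.62 and -0.41 with 0 calls. In astrocytes the same gene had 12.2, 12.7, 13.8 and 15.7 RPKM in KO and 15.4, 12.2, 14.3 and 13.5 RPKM in WT libraries. Rb1cc1 had 1.59 and 2.00 RPKM in KO flowthrough, against 1.37 and 1.12 RPKM in WT flowthrough, with a log2 fold change of 0.53 ± 0.25. The other initiation genes lay between -0.35 for Atg101 and 0.25 for Ulk1. The nucleation genes lay between -0.14 for Becn1 and 0.07 for Pik3r4.

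Wipi1 had 2.68 and 4.28 RPKM in KO flowthrough, against 2.72 and 2.53 RPKM in WT flowthrough (log2 0.41 ± 0.23). The high value came from KO mouse 60 alone, and the lower KO library lay between the WT libraries. Tfeb had 1.14 and 0.837 RPKM in KO flowthrough, against 1.25 and 1.44 RPKM in WT flowthrough (log2 -0.45 ± 0.38). The conjugation enzymes lay between -0.33 for Atg4d and 0.30 for Atg12, and the ATG8 genes between -0.19 for Map1lc3a and 0.31 for Gabarapl1. The E-box members Atg3 (-0.16 ± 0.23), Atg5 (-0.01 ± 0.15), Atg7 (-0.09 ± 0.18) and Atg14 (0.02 ± 0.18) all had intervals that included 0. In these libraries 4 of 5 choroid plexus markers were below 0 between KO and WT (median -0.80), with a summed level of 19323 to 23282 CPM in KO and 33797 to 39972 CPM in WT flowthrough. Most markers of several other cell types lay above 0, with 8 of 8 for endothelial cells (median 0.64) and 5 of 5 for pericytes (0.54). The same held for 9 of 10 in neurons (0.69), 9 of 10 in astrocytes (0.44) and 9 of 10 in oligodendrocytes (0.26). Microglia markers had a median of 0.01, with 7 of 10 above 0. None of these markers was called, and their part in the members' values was not tested.

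Whether the label's effect differed between fractions was tested as an interaction of label and fraction over the 12 libraries, and 0 of 36 members were called (0% of 20997 genes). At an unadjusted p under 0.05 there was 1 member, Calcoco1, against 3.94% of all genes. Its KO minus WT difference was 0.47 ± 0.20 higher on the log2 scale in astrocytes than in flowthrough (unadjusted p = 0.0375, adjusted p = 0.934). DESeq2 and limma-voom called 0 members. The interval of the difference lay within 2-fold for 27 of 36 members.

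**Figure D4:**
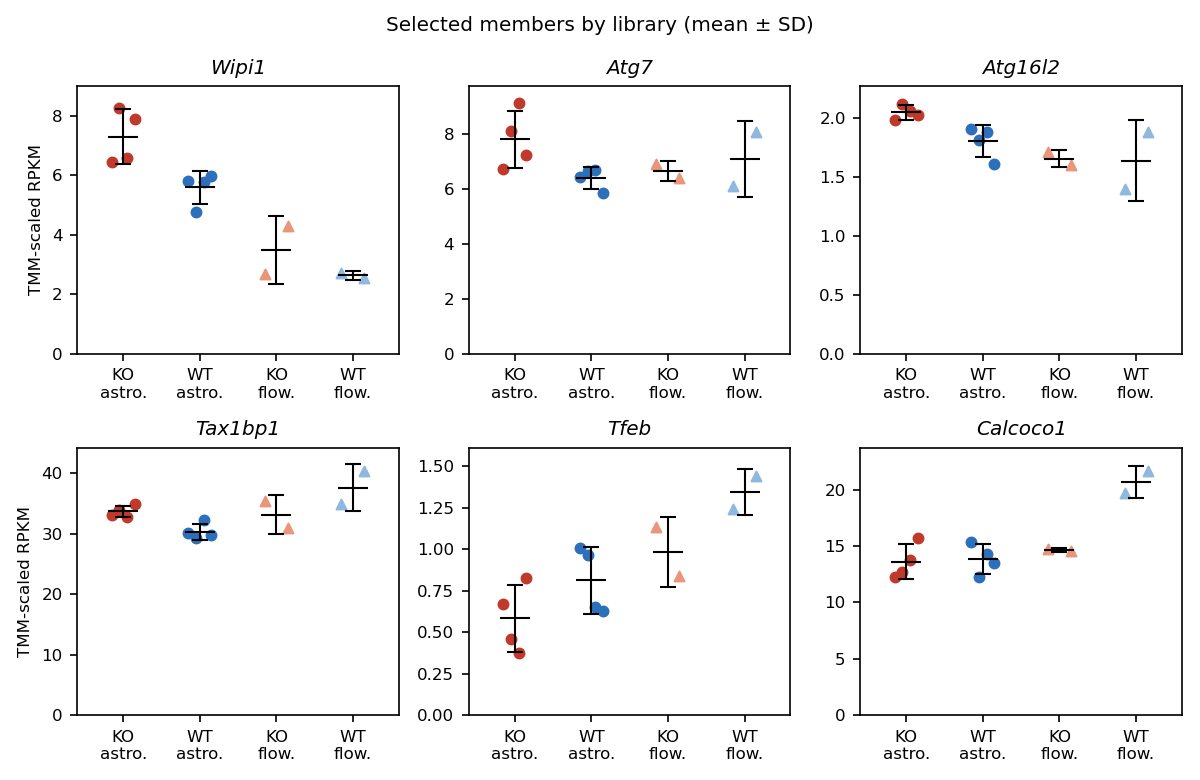
Levels of Wipi1, Atg7, Atg16l2, Tax1bp1, Tfeb and Calcoco1 in every library, in TMM-scaled RPKM from 0. Points are libraries and bars the mean ± SD (n = 4, 4, 2 and 2). KO and WT astrocytes do not overlap for the first 4 genes but overlap for Tfeb and Calcoco1, and Calcoco1 is highest in WT flowthrough.

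The fractions differed far more than the labels. Between astrocytes and flowthrough, 18 of 36 members were called, 10 higher and 8 lower in astrocytes, against 49.2% of 20997 genes (24.8% higher and 24.4% lower). The share of members called was thus near that of all genes. This fit did not pair the fractions of the same mouse, and a fit that did is given below. All 18 called members had the same sign of difference in KO and in WT mice. The call was made on the mean of the differences in KO and WT mice, which favours such agreement. The members higher in astrocytes were Ulk1, Atg13, Atg2b, Atg9a, Wipi1, Wipi2, Map1lc3b, Gabarapl1, Gabarapl2 and Nbr1, and those lower were Atg101, Pik3c3, Pik3r4, Atg4a, Atg5, Atg16l1, Tfeb and Calcoco1. All 8 astrocyte libraries lay above all 4 flowthrough libraries for 6 members and below them for 3, against 12.2% and 17% of all genes.

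Genes of membrane supply were called in 4 of 6 cases, all higher in astrocytes, against 24.8% of all genes called higher. Wipi1 ran from 4.77 to 8.27 RPKM (median 6.21) in the 8 astrocyte libraries, against 2.68, 4.28, 2.72 and 2.53 RPKM in flowthrough. Every astrocyte library was above every flowthrough library, and the level was 2.11-fold higher (log2 1.08 ± 0.15, adjusted p = 0.000165). It was 1.10 higher on the log2 scale in KO mice and 1.08 in WT mice. Atg2b, which moves lipids into the growing membrane, ran from 2.19 to 2.85 RPKM (median 2.48) in astrocytes, against 1.72, 2.03, 1.68 and 1.72 RPKM in flowthrough (log2 0.48 ± 0.11, adjusted p = 0.00305). Its paralog Atg2a had a log2 difference of -0.21 ± 0.13 and was not called, and it took 33.2 ± 1.6% of the summed ATG2 level in KO astrocytes and 37.6 ± 3.6% in WT astrocytes, against 46.2 ± 4.8% in KO flowthrough and 47.8 ± 2.1% in WT flowthrough. Under library size scaling, which lowered the median of all genes to -0.14 in this comparison, Atg2a was called as lower (-0.37, adjusted p = 0.0311) and Ulk1, Atg9a and Nbr1 were not called, so that 16 members were called, 15 of them shared. Wipi2 (0.57 ± 0.16) and Atg9a (0.40 ± 0.13) were also higher in astrocytes, and Atg9b (1.05 ± 0.41, adjusted p = 0.0551) missed the threshold. In a fit with the mouse as a block, over the 4 mice that gave both fractions, Atg9a was not called (adjusted p = 0.115) and Atg9b was (1.08, adjusted p = 0.0179).

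Of the ATG8 proteins, 3 of 5 were higher in astrocytes and none was lower, against 24.8% and 24.4% of all genes. Gabarapl1 had the largest difference. It ran from 75.3 to 139 RPKM (median 114) in astrocytes, against 47.0, 73.2, 52.6 and 44.3 RPKM in flowthrough, so that the lowest astrocyte library, KO mouse 73, lay just above the highest flowthrough library. The level was 2.08-fold higher (log2 1.05 ± 0.19, adjusted p = 0.000799). Map1lc3b ran from 115 to 167 RPKM (median 143) in astrocytes, against 84.9, 101, 84.9 and 87.8 RPKM in flowthrough (1.60-fold, log2 0.68 ± 0.13, adjusted p = 0.00109). Gabarapl2 was higher by 0.38 ± 0.10. Gabarap, the member with the highest RPKM, and Map1lc3a were not called (0.12 ± 0.10 and 0.30 ± 0.15). With library size scaling the Gabarap difference was -0.04. The share of Gabarap in the ATG8 sum was accordingly 31.5 ± 3.5% in KO astrocytes and 32.2 ± 1.8% in WT astrocytes, against 38.3 ± 2.8% in KO flowthrough and 41.1 ± 1.2% in WT flowthrough. That of Gabarapl1 was 17.4 ± 1.9% and 18.7 ± 1.5% in KO and WT astrocytes, against 13.2 ± 2.7% and 10.6 ± 0.91% in KO and WT flowthrough.

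In the conjugation system, 3 of 11 genes (27.3%) were lower in astrocytes, near the 24.4% of all genes. None was higher, against 24.8% of all genes. Atg5 ran from 13.7 to 16.4 RPKM (median 15.5) in astrocytes, against 24.3, 20.3, 22.1 and 22.7 RPKM in flowthrough. No astrocyte library reached a flowthrough library, and the log2 difference was -0.55 ± 0.09 (adjusted p = 0.00062). Atg16l1, whose protein anchors the ATG12-ATG5 conjugate to the membrane, ran from 0.692 to 0.920 RPKM (median 0.789) in astrocytes, against 1.03, 0.997, 1.05 and 1.24 RPKM in flowthrough (-0.44 ± 0.12, adjusted p = 0.0103). Its paralog Atg16l2 had the higher RPKM of the pair in every library, at an exon length of 3881 bases against 9628 for Atg16l1. By reads, Atg16l1 was the higher in flowthrough, with 550, 504, 558 and 601 reads against 368, 327, 299 and 369. In astrocytes the order by reads varied between libraries. Of their summed RPKM, Atg16l2 took 72.7 ± 1.7% in KO astrocytes and 69.0 ± 2.0% in WT astrocytes. Its share was 62.0 ± 0.51% in KO flowthrough and 58.7 ± 2.3% in WT flowthrough. Atg4a was the member of the ATG4 proteases called lower (-0.49 ± 0.16, adjusted p = 0.0248), and Atg4b, Atg4c and Atg4d had differences of 0.0035, -0.02 and 0.26 that did not pass. Atg3, Atg7, Atg10 and Atg12 did not pass either, with 0.04, 0.04, 0.03 and 0.43, though Atg12 was called with the mouse as a block (0.31, adjusted p = 0.0294).

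The kinase complexes were split. Ulk1 (0.46 ± 0.16) and Atg13 (0.50 ± 0.11) were higher and Atg101 (-0.55 ± 0.15) was lower in astrocytes. Atg101 ran from 18.4 to 32.0 RPKM (median 24.1) in astrocytes, against 34.9, 26.1, 32.9 and 44.9 RPKM in flowthrough, so the fractions overlapped. In the nucleation complex the kinase Pik3c3 (-0.35 ± 0.09) and its regulatory subunit Pik3r4 (-0.45 ± 0.14) were lower in astrocytes, whereas Becn1 and Atg14 did not pass (0.14 ± 0.15 and -0.20 ± 0.11). Pik3c3 ran from 6.21 to 8.43 RPKM (median 8.002) in astrocytes, against 10.4, 9.02, 9.68 and 10.3 RPKM in flowthrough, with no overlap.

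Tfeb ran from 0.376 to 1.01 RPKM (median 0.661) in astrocytes, against 1.14, 0.837, 1.25 and 1.44 RPKM in flowthrough (log2 -0.74 ± 0.23, adjusted p = 0.0200). Of the cargo receptors, Nbr1 was higher (0.25 ± 0.09, adjusted p = 0.0487) and Calcoco1 lower (-0.34 ± 0.10, adjusted p = 0.0142) in astrocytes, while Optn (0.32 ± 0.15) and Tax1bp1 (-0.14 ± 0.09) did not pass. With the mouse as a block Nbr1 was not called (adjusted p = 0.166). The Calcoco1 difference was -0.11 in KO mice and -0.58 in WT mice on the log2 scale, which is the interaction given above.

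**Figure D5:**
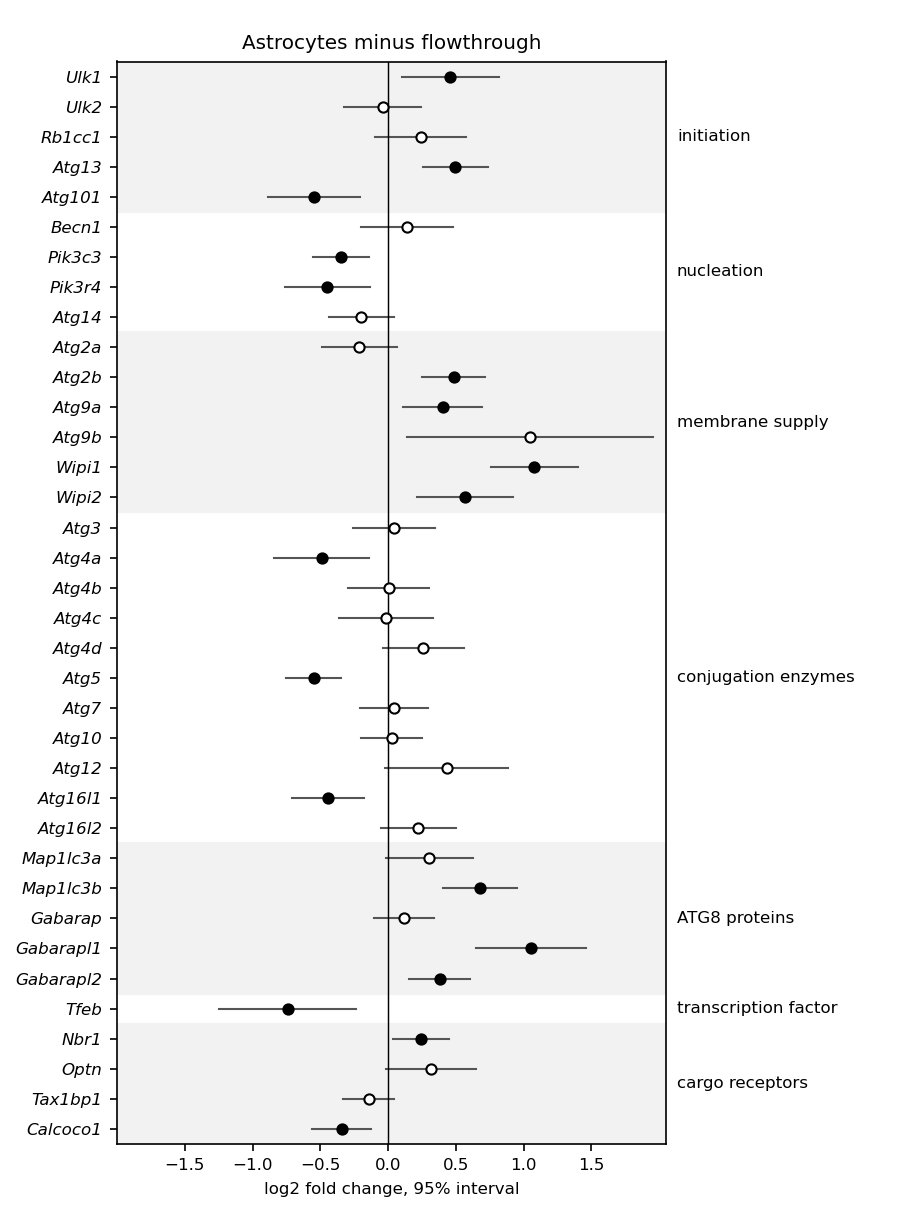
Log2 fold change of each member, astrocytes minus flowthrough, from the fit over 12 libraries with 95% intervals. Filled circles passed the test at an adjusted p under 0.05. Wipi1 and Gabarapl1 lie farthest to the right among them, at 1.08 and 1.05, and Tfeb farthest to the left at -0.74.

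The fractions also differed in cell types. All 10 microglia markers (median log2 difference -3.55), all 8 endothelial markers and all 5 choroid plexus markers were lower in astrocytes. All 10 astrocyte markers (median 1.84), 9 of 10 neuron markers (median 1.58) and 5 of 10 oligodendrocyte markers (median 0.99) were higher. Summed microglia markers ran from 813 to 3813 CPM in KO astrocytes and from 796 to 1574 CPM in WT astrocytes, against 14136 to 22187 CPM in KO flowthrough and 16892 to 16926 CPM in WT flowthrough. With the covariate for markers of other cells, 2 of the 18 members were called, Wipi1 (1.20, adjusted p = 0.0068) and Atg5 (-0.73, adjusted p = 0.00881). This covariate averages the microglia, oligodendrocyte, endothelial and neuron lists, whose differences between fractions point in opposite directions. It leaves out choroid plexus and does not measure the share of each cell type. Without KO mouse 73 and WT mouse 78, which left male-type libraries only, 20 members were called, 17 of the 18 among them. Without the flowthrough library of KO mouse 132, 8 of the 18 remained (Atg13, Atg2b, Atg9a, Wipi1, Atg5, Atg16l1, Map1lc3b and Gabarapl1), and without that of WT mouse 64, 10 remained. Atg13, Atg2b, Wipi1, Atg5, Map1lc3b and Gabarapl1 were called in each of the 12 fits that left out 1 library, whereas Ulk1 was called in 4 and Nbr1 in 3 of them.

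Of 65 further genes of the pathway, 35 were called between astrocytes and flowthrough, 19 higher and 16 lower. This share, 53.8%, is near the 49.2% of all genes (24.8% higher and 24.4% lower). Among 7 transcription factors related to TFEB in function, 4 were lower and 2 higher in astrocytes. The TFEB relatives Mitf (-1.58 ± 0.14) and Tfe3 (-1.28 ± 0.10), and Cebpb (-2.01 ± 0.36), a factor of inflammatory and metabolic genes, were among those lower. Of 15 other cargo receptors and mitophagy genes, 7 were higher and 3 lower. Pink1, the kinase that marks damaged mitochondria, was 1.27 ± 0.24 higher, the mitochondrial receptor Fkbp8 was 0.71 ± 0.12 higher, and Ncoa4, the ferritin receptor, was lower (-0.44 ± 0.10). In the fusion of autophagosomes with lysosomes, 3 of 14 genes were higher and 2 lower, among them the SNARE protein gene Vamp8 (-1.42 ± 0.10) and Tecpr1 (0.66 ± 0.11). Among 14 genes of upstream kinase signalling, 3 were higher and 3 lower, with Prkab1, a subunit of AMP-activated protein kinase, at -1.54 ± 0.21 and Rptor, the mTORC1 scaffold, at -0.98 ± 0.16. Of 15 other regulators of initiation and nucleation, 4 were higher and 4 lower, with Tbk1, a kinase of cargo receptors, at -1.10 ± 0.17 and Bcl2, which binds Beclin 1, at 0.65 ± 0.13. Under library size scaling the counts higher and lower were 0 and 4 for the transcription factors, 3 and 3 for the cargo receptors and mitophagy genes, 2 and 5 for fusion, 3 and 4 for kinase signalling and 1 and 6 for the other regulators.

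Between KO and WT mice, 0 of the 64 further pathway genes tested in astrocytes and 0 of the 65 tested in flowthrough were called. At an unadjusted p under 0.05 there were 2 in astrocytes, where 5.37% of all genes passed, Zfyve1 (log2 0.41 ± 0.15), which marks sites of autophagosome formation, and Bcl2 (-0.35 ± 0.14). In flowthrough, where 4.63% of all genes passed, there were also 2, Tsc1, an inhibitor of mTORC1 signalling (0.37 ± 0.16), and Wdfy3, which links aggregates to autophagosomes (0.46 ± 0.18). Their median log2 fold change was 0.07 in astrocytes and 0.07 in flowthrough, against 0.0044 and 0.04 over all genes.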

How the data were processed

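Per the file headers, each of the 12 deposited tables gives exon coordinates, exon length, a whole-number read count, CPM and RPKM for every gene. The authors' CPM is the count scaled to the library's total, within 5.1e-11, and the deposited RPKM is that CPM per kilobase of exon, within 9.1e-11. The submitters' processing notes name the build GRCm38 and the tools STAR 2.5.1a, featureCounts 1.4.6-p5, Subread and bcl2fastq. Which step each served, the annotation release and the strand setting are not stated. Symbols came from a reference name table that matched 40254 identifiers.

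In R 4.3.3, edgeR 4.0.16 tested the deposited counts (quasi-likelihood test, two-sided, TMM scaling, filterByExpr by group) with Benjamini-Hochberg adjustment over all genes tested, and an adjusted p under 0.05 was called. KO and WT astrocytes were compared over the 8 astrocyte libraries (6 residual degrees of freedom). The other comparisons used 4 group means over 12 libraries (8 residual degrees of freedom), without a mouse block. Levels in RPKM and marker sums in CPM were rescaled by TMM factors of the 12 libraries. Fold changes are given on the log2 scale ± SE. The code was tested on simulated data. All 36 members are reported, and of other pathway lists up to 3 genes with the smallest p per comparison. The members, steps and lists were chosen with earlier results of these data known.

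The mouse numbers in the labels pair the fractions of 4 animals. The fractions' deviations from their group means correlated with -0.0066 in mouse 132, and with 0.155 (mouse 56), 0.352 (mouse 60) and 0.251 (mouse 64). No libraries had identical counts. A count of 3, taken as the floor, was 0.0582 to 0.0775 CPM of the library's total, without TMM, and covers counting error only. Alternatives were RLE or library size scaling, other filters, DESeq2 1.42.0, limma-voom (limma 3.58.1), a threshold of 0.1, a covariate for the microglia, oligodendrocyte, endothelial and neuron markers, other sets of libraries, a mouse block, and each library left out in turn. Promoter windows were from RefSeq.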

Additional observations from a re-analysis of the deposited data

Results flagged for a closer look

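In 6 of 74 groups of 4 astrocyte libraries, 1 library lay far from the other 3 with the ratio of its gap to the range above Dixon's 95% critical value. The groups were those of the members and of Arntl under each label. Chance alone gives about 1 such group in 20, so some of the 6 can arise by chance. Genes measured in the same library are not independent. Of the 6 flagged, 4 were the KO library of mouse 73. That library also had fewer astrocyte markers (12051 CPM) and more microglia markers (3813 CPM) than the other KO astrocyte libraries. Whether these go together was not tested. In that library Gabarapl2 was low at 77.4 RPKM against 98.0 to 99.6 in the other KO astrocytes (ratio 0.935). Atg9b was low at 0.213 RPKM against 0.516 to 0.564 (ratio 0.908). Atg4c was high at 10.7 RPKM against 6.17 to 6.52 (ratio 0.901). Atg5 was low at 13.7 RPKM against 16.1 to 16.4 (ratio 0.884). The other 2 were WT libraries. Wipi1 was low in WT mouse 57, at 4.77 RPKM against 5.78 to 5.98 in the other WT astrocytes (ratio 0.851). Ulk2 was low in WT mouse 56, at 3.87 RPKM against 5.20 to 5.50 (ratio 0.841).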

How the results depend on the processing

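No member was called between KO and WT mice, in astrocytes, in flowthrough or as an interaction, under any alternative run. In astrocytes the count over all genes, 43, was 28 with library size scaling, 184 with DESeq2, 75 at an adjusted p under 0.1 and 182 with the covariate, and 12 to 37 with 1 library left out. The share of called genes that were higher was 62.8%, and was 75% with library size scaling and 48.9% with DESeq2. The members' median there, 0.09, was 0.035 to 0.10 with 1 library left out. In flowthrough the count of 1 gene was 23 with DESeq2, 0 with limma-voom, 0 with the 4 flowthrough libraries alone and 0 to 5 with 1 library left out. The members' median, -0.02, was -0.076 with library size scaling, 0.081 with the covariate and -0.063 to 0.045 with 1 library left out. For the interaction DESeq2 called 8 genes, and the median of 0.06 was 0.17 with library size scaling, 0.12 without KO mouse 73 and WT mouse 78 and 0.021 to 0.13 with 1 library left out. Between fractions, the 18 members called became 2 and the 10333 genes 3176 with the covariate, and 8 to 21 members were called with 1 library left out. The members' median of 0.13 was -0.029 with library size scaling and -0.060 with the covariate, and 0.10 to 0.16 with 1 library left out. The cause of these shifts was not tested. Where a flowthrough library was left out, the lone library of its label was assumed to vary like the other groups.

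With the mouse as a replicate block, over the 8 libraries of the 4 mice with both fractions and without the other 4 libraries, 18 members were called between fractions, 16 of them shared with the fit without it. Atg9a and Nbr1 were not called and Atg9b (1.08, adjusted p = 0.0179) and Atg12 (0.31, adjusted p = 0.0294) were. The interaction had 0 calls. For KO minus WT, where each mouse has 1 label, the mouse was a random effect (replicate block) in limma-voom, so that the test changed along with the block. It called 0 members in either fraction, 56 genes in astrocytes, against 31 for limma-voom without the block, and 0 genes in flowthrough. The block changed no other call of a member.

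Of the values of single members under alternatives, 623 of 648 in astrocytes, 776 of 792 in flowthrough and 739 of 756 for the interaction moved by less than 1 SE. Between fractions 60 of 756 lost a call and 12 gained one, and no called member changed sign. Only values of the 18 called members could lose a call and only those of the other members could gain one. The 756 values are therefore not the base for either count.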
